A study of Mus musculus with 45 samples.

Results

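The genes described here are 36 genes of neurons and synapses, listed by symbol, that were followed as a measure of brain tissue in mouse gliomas profiled on arrays. Where a symbol had several probe sets, the one with the highest mean signal in the 45 arrays gave the gene's value. Of the 36 genes, 35 had a probe set and Dlg4, which encodes a scaffold protein of the postsynaptic density, had none that was named by 1 symbol. All 35 passed the filter on low signal that 11809 of 17097 measured genes passed. They comprised 5 general neuron genes, 10 of the synaptic vesicle and its release, 5 postsynaptic, 2 vesicular glutamate transporters, 3 of GABA synthesis and loading, 5 of interneurons and neuropeptides, and 5 receptors and ion channels.

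Neurons pass signals at synapses, where calcium entry makes vesicles fuse with the membrane and release a transmitter. Glutamate excites the next cell and is packed by vesicular glutamate transporters, while GABA inhibits it and is made by the enzymes Gad1 and Gad2 and packed by Slc32a1. A glioma that grows through brain encloses neurons of the region it invades, so tumour pieces hold transcripts of mature neurons in varying amounts, and the mix of transmitter genes differs between brain regions.

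Per the labels, all tumours were in mouse brain of the CD-1 nude strain, an immunodeficient outbred stock, and all carried a p53 null genotype. The series description states that PDGFRA, unmutated or as 1 of 6 mutants, was put by retrovirus into p53-null astrocytes cultured from mice, so these tumours derived from engineered cultures. How EGFRvIII was delivered is not given in the sources used here. The groups were EGFRvIII, a truncated active form of the EGF receptor, with 8 arrays, and Pdgfra V544ins with 9, E10 del.v2 with 9, C450 ins with 5, D842V with 5, E10 del with 5, E7 del with 3 and WT with 1. The labels do not say whether arrays of a group came from separate animals, cultures or tumours, so p-values measure only the spread between these samples. No array of normal brain was among those analysed, so RNA of host neurons and neuronal RNA made by tumour cells cannot be told apart.

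Numbers in the sample titles fell into a lower range, 1 to 30 with 21 arrays, and an upper range, 41 to 64 with 24 arrays, and the labels do not say what the ranges stand for. C450 ins, D842V and E10 del lay wholly in the lower range, and EGFRvIII, E7 del and WT wholly in the upper. V544ins and E10 del.v2 were each split, 3 arrays with lower titles and 6 with upper. Values are log2 signals, and a centred value is a gene's log2 signal minus its mean over the 45 arrays, so that genes can be averaged. The mean of the centred genes is called the neuron gene mean. Replicate numbers only name arrays.

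The neuron genes varied more between arrays than most transcripts of the series. Between the lowest and the highest array a gene's signal spanned from 4.33 on the log2 scale for Vamp2, a membrane protein of synaptic vesicles, to 9.41 for Penk, the enkephalin precursor, or 680-fold. The median span was 7.37, against 2.15 over all genes that passed the filter. In all 45 arrays 8 of the genes lay above the table median of 4.79, namely Thy1, Snap25, Syn1, Vamp2, Snap91, Camk2a, Camk2b and Kcna1. Slc17a7, Npy2r and Vip did so in 12, 9 and 19 arrays. These counts use 1 probe set a gene, and levels of different genes are not compared.

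The neuron gene mean ran from -2.99 in V544ins replicate 5 to 2.74 in E10 del.v2 replicate 2, a 52.8-fold span. In these bulk samples fewer neurons and less RNA per neuron cannot be told apart. In EGFRvIII the lowest, median and highest values were -2.54, -0.98 and 1.73. V544ins ran from -2.99 over -0.61 to 2.27, and E10 del.v2 from -0.60 over 0.51 to 2.74. Both mutants therefore overlapped EGFRvIII.

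The smaller groups also varied between arrays. The 5 C450 ins arrays had 1.72, 0.55, 0.64, -2.0 and -2.22, and the 5 D842V arrays 2.19, 1.01, 0.99, 1.04 and -2.21. The 5 E10 del arrays had 2.25, 2.25, 2.18, 0.49 and -0.10, and the 3 E7 del arrays 0.10, -2.18 and -2.35. The single WT array had -1.0. D842V replicate 5 thus sat with the poorest arrays although the other 4 of its group lay above 0.

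Group means were -0.89 ± 1.33 (SD, n = 8) in EGFRvIII, -0.26 ± 1.75 (n = 5) in C450 ins, 0.61 ± 1.66 (n = 5) in D842V and -1.48 ± 1.37 (n = 3) in E7 del. They were 1.42 ± 1.13 (n = 5) in E10 del, 0.68 ± 1.08 (n = 9) in E10 del.v2 and -0.27 ± 1.90 (n = 9) in V544ins. Of the sum of squares of the neuron gene mean, 73.5% lay within genotypes and 52.8% within genotype and title range. Most of the variation in neuronal RNA was thus between arrays of 1 genotype.

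**Figure D1:**
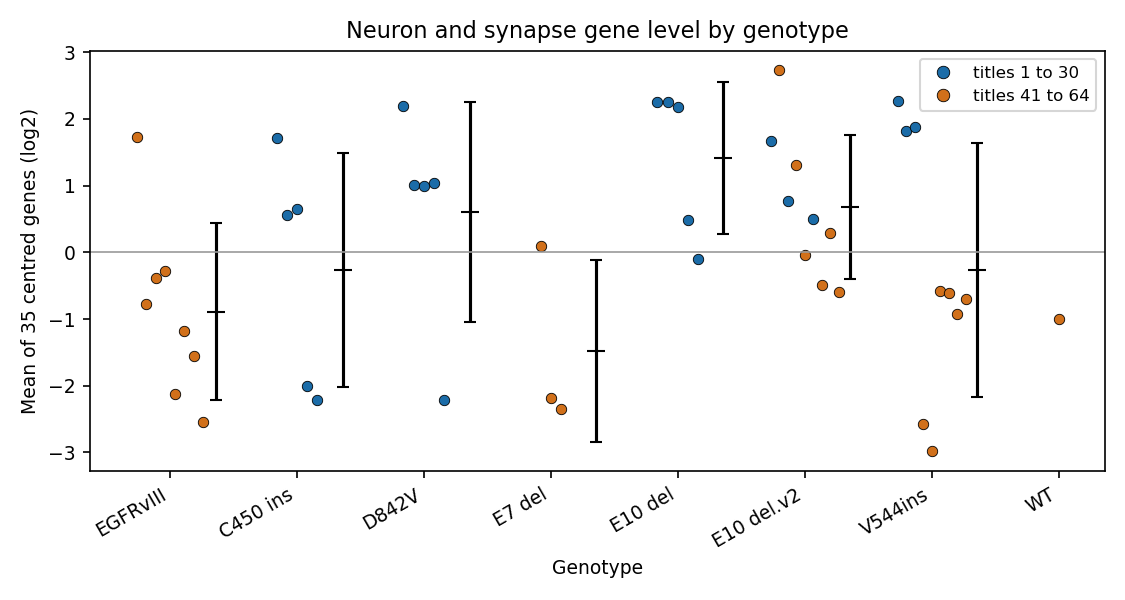
Mean of the centred log2 signal of 35 neuron genes (y axis) in each of 45 arrays, grouped by genotype (x axis), with the group mean and SD as bars. The groups overlap, from -2.99 in V544ins replicate 5 to 2.74 in E10 del.v2 replicate 2, and the low D842V array stands apart from its 4 fellows.

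Arrays from the lower titles were richer in neuron genes within V544ins. Its 3 lower arrays had neuron gene means of 2.27, 1.81 and 1.88, and its 6 upper arrays ran from -2.99 to -0.57, so the ranges did not overlap. In E10 del.v2 the 3 lower arrays had 1.67, 0.78 and 0.51 and the 6 upper arrays ran from -0.60 to 2.74, which overlapped. Genotype and title range cannot be told apart in the other groups.

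Markers of other cells varied with the neuron gene mean over the same 45 arrays to unlike degrees, some of them hardly. The correlation was -0.60 with the mean of 9 cell cycle genes (Spearman's rho -0.63), 0.65 with 10 astrocyte genes, -0.40 with 10 microglia and macrophage genes, -0.32 with 8 oligodendrocyte progenitor genes, -0.23 with 8 endothelial genes and 0.21 with 11 genes of myelinating oligodendrocytes. The array richest in neuron genes, E10 del.v2 replicate 2, had a centred cell cycle mean of -3.90. In E10 del, also rich in neuron genes, replicates 1 to 3 had -2.27, -2.10 and -3.01, whereas V544ins replicate 5 had 1.14. Low cell cycle means also occurred in arrays poor in neuron genes. The WT array had -2.30 at a neuron gene mean of -1.0, and EGFRvIII replicate 7 had -2.005 at -1.56. The astrocyte relation was 0.82 within the lower titles and 0.57 within the upper. In the same order the cell cycle relation was -0.78 and -0.49, and that of microglia and macrophages -0.16 and -0.35. Oligodendrocyte progenitors had -0.62 and -0.16, endothelial genes -0.44 and -0.19, and myelinating oligodendrocytes -0.06 and 0.17. All these points share arrays and their scaling, so the values describe the arrays only, and the part of other cell types in the gene differences below was not tested.

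RNA integrity was read from the probe sets at the 3' and 5' ends of 2 housekeeping genes. The 3' minus 5' difference of Actb ranged from 0.43 to 1.19 with a median of 0.64, and was highest in E10 del.v2 replicate 2, the array richest in neuron genes. Its correlation with the neuron gene mean was 0.39. That of Gapdh ranged from -0.36 to 0.41 and correlated at -0.36. The 2 controls thus pointed in opposite directions over all arrays and within the lower titles, at 0.35 and -0.41, whereas both were positive within the upper titles, at 0.56 and 0.20. The part of RNA integrity was not tested.

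Against a yardstick of other neuron genes, the 35 genes largely followed 1 common trend. The yardstick, called the reference neuron mean, was the mean centred signal of 15 neuron genes outside the module, among them Eno2, the neuronal enolase, Stmn2, a microtubule regulator of axons, and Sv2a, a vesicle protein. Pearson's r with it over 45 arrays ran from 0.60 for Penk to 0.97 for Thy1, a surface glycoprotein of neurons, with a median of 0.87. It passed 0.8 for 25 genes and 0.9 for 12. All 35 had r over 0.5, as did 20.1% of all genes that passed the filter, whose median r was -0.20. After group means were taken out the median r was still 0.86, and it was 0.89 within the lower titles and 0.83 within the upper.

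The genes differed in how steeply they followed the trend. The slope was 0.49 for Snap91, which encodes a clathrin assembly protein of the presynapse, and 0.67 for Vamp2. It was 1.67 for Hpca, the calcium sensor hippocalcin, 1.66 for Rbfox3, the neuronal splicing factor known as NeuN, and 1.61 for Ddn, the dendrite protein dendrin. The median slope was 1.11.

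**Figure D2:**
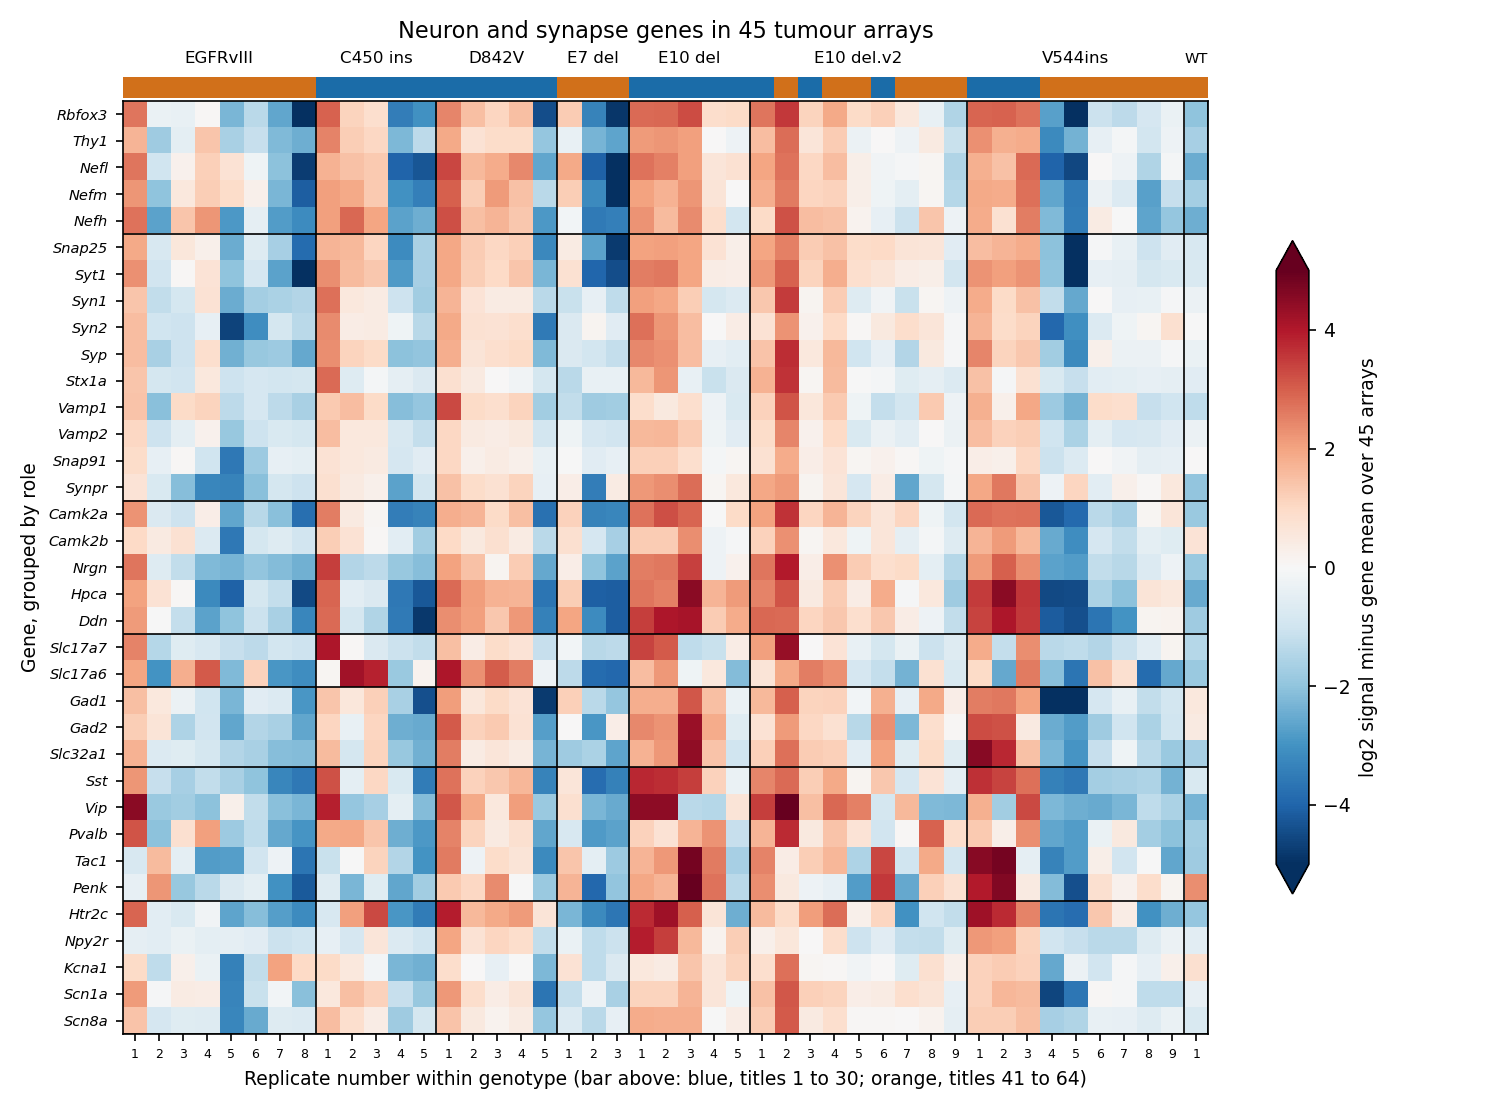
Centred log2 signal (colour, scale from -5 to 5) of 35 neuron genes ordered by role (rows) in 45 arrays ordered by genotype (columns), with a blue bar over titles 1 to 30 and an orange bar over titles 41 to 64. Columns are mostly of 1 colour, high in E10 del replicates 1 to 3 and low in V544ins replicates 4 and 5, with single genes such as Penk and Slc17a6 departing from their column.

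The upstream sequences of the genes were searched for known promoter motifs. RefSeq promoters of the build GRCm38.p6, the 250 bases before each start, were matched by symbol for 25 of the 35 genes, with 33 promoters. Both strands were searched. The cAMP response element TGACGTCA, bound by CREB factors that respond to neuronal activity, was present upstream of Sst and Syn1, against 1.79% of 32851 promoters. TTCAGCACC, the left part of RE1, the element bound by the repressor REST that silences neuron genes in other cells, was present upstream of Syn1, against 0.371% of all promoters. These 2 promoters are shown because they hold these motifs, in capitals: the response element in both, and the RE1 part in Syn1 only. Sst lies on the minus strand at chr16:23890845-23891094 and its element begins 48 bases before the start, and Syn1 lies on the minus strand at chrX:20920919-20921168 with the response element 159 bases before the start.
Sst: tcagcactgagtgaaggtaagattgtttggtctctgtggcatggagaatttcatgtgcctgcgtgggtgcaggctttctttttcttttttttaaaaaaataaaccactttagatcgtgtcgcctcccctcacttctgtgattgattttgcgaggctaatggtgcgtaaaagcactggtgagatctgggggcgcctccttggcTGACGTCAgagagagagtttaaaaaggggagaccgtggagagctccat
Syn1: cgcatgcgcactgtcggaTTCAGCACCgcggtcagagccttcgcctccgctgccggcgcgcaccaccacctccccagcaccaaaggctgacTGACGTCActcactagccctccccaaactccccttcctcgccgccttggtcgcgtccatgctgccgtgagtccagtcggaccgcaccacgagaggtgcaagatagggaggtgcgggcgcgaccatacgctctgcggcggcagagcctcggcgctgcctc
None of the 33 promoters held the longer core of RE1, which 0.0122% of all promoters held. CCAAT was found upstream of 10 of the 25 matched genes, some of which have several promoters, against 37.4% of promoters. TATAAA was found upstream of Gad1 and Vip, against 13.6%. A match is a string of letters in this window and says nothing of binding. Sst had r 0.94 with the reference neuron mean and Syn1 0.93. Rbfox3 and Syp, whose matched promoters held neither the response element nor the RE1 part, had 0.95 each.

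The general neuron genes kept close to the trend, with exceptions in a few arrays. Rbfox3 had r 0.95, Nefh 0.90, Nefl 0.88 and Nefm 0.87, the last 3 being the heavy, light and medium neurofilament subunits of axons. In EGFRvIII replicate 5, an array poor in neuron genes with a mean of -2.12, Nefl had a signal of 9.28 and Nefm of 9.09, which lay 4.16 and 3.92 above the line fitted to all arrays. The same 2 genes lay at -2.45 and -2.77 from it in E7 del replicate 3. After the trend was removed Nefl and Nefm still varied together, with r 0.88 between their residuals.

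Among the vesicle genes, Snap25, a fusion protein of the presynaptic membrane, traced the neuron content of the groups. Its log2 signal in EGFRvIII ran from 6.99 over a median of 10.13 to 12.74, in V544ins from 5.68 over 10.49 to 12.70 and in E10 del.v2 from 10.27 over 11.82 to 13.37. The 3 E7 del arrays had 11.25, 8.17 and 6.07. Means were 12.26 ± 0.85 (n = 5) in E10 del, 11.92 ± 0.89 (n = 9) in E10 del.v2, 11.28 ± 2.08 (n = 5) in D842V, 10.77 ± 2.19 (n = 5) in C450 ins, 10.39 ± 2.22 (n = 9) in V544ins, 10.01 ± 1.82 (n = 8) in EGFRvIII and 8.50 ± 2.61 (n = 3) in E7 del, with 10.03 in the WT array. Neighbours in that order differed by less than their SD. The r with the reference neuron mean was 0.93 for both Snap25 and Syt1, the calcium sensor of release, 0.95 for Syp, the vesicle protein synaptophysin, and 0.93 for the synapsin Syn1.

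Synpr and Snap91 were the vesicle genes called higher in the mutants than in EGFRvIII. Synpr encodes synaptoporin, a vesicle protein related to synaptophysin. Its signals in EGFRvIII ran from 4.85 over 6.64 to 8.87. The D842V arrays had 9.67, 9.11, 8.97, 9.32 and 7.79, the E10 del arrays 10.35, 10.54, 10.98, 8.28 and 8.72, and the C450 ins arrays 8.99, 8.63, 8.45, 5.52 and 7.27. Most mutant arrays of these groups thus lay above the EGFRvIII median, and E7 del was mixed at 8.54, 4.75 and 8.61. V544ins ran from 7.69 over 8.73 to 10.83 and E10 del.v2 from 5.59 over 8.35 to 10.34, and WT had 6.23.

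The unweighted mean of the 6 mutant groups was higher than EGFRvIII by 1.92 ± 0.51 (SE) for Synpr, or 3.78-fold, with an adjusted p of 0.0166 by limma. Synpr and Snap91 were the 2 of 35 neuron genes called in this comparison at an adjusted p under 0.05, both higher, against 8.9% of all genes called, 3.55% higher. All 35 differences were positive, with a median of 1.0, against 47.6% positive and a median of -0.02 over all genes. An unadjusted p under 0.05 was reached by 6 of the 35, against 27.5% of all genes. The 2 calls made 5.71% of the 35 genes, below the background in either direction and above it for higher calls, and with so few calls nothing is read from these shares.

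Snap91 had signals in EGFRvIII of 6.71 at the lowest, 9.85 at the median and 11.22 at the highest. The C450 ins arrays had 11.01, 10.82, 10.75, 9.45 and 9.73, the D842V arrays 11.33, 10.54, 10.72, 10.55 and 9.91, and the E10 del arrays 11.50, 11.49, 11.12, 10.20 and 10.39. E7 del had 10.28, 9.74 and 9.88, E10 del.v2 ran from 10.10 over 10.51 to 12.17, V544ins from 9.24 over 10.13 to 11.32, and WT had 10.30. EGFRvIII was thus low mainly through replicates 5 and 6, at 6.71 and 8.50, and overlapped every mutant group. The mean of 8 centred oligodendrocyte progenitor genes was -2.55, -3.89 and -1.61 in EGFRvIII replicates 4, 5 and 6 and ran from -0.19 to 1.06 in the other 5, and its part in the Synpr and Snap91 calls was not tested. The difference of Snap91 was 1.0 ± 0.31, or 2.0-fold, with an adjusted p of 0.0368 by limma.

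Both calls were lost in comparisons within a title range. With the range as a block the Synpr difference was 1.04 ± 0.61 with an adjusted p of 0.381, and within titles 41 to 64 alone it was 1.27 ± 0.59 with an adjusted p of 0.256. For Snap91 the values were 0.69 ± 0.39 with an adjusted p of 0.363 and 0.71 ± 0.40 with an adjusted p of 0.345, all by limma. Under the block 11 of the 35 differences were positive, and 21 of 35 within titles 41 to 64. Without EGFRvIII replicate 4, 5 or 6 neither gene was called, with adjusted p-values for Synpr of 0.0598, 0.0934 and 0.0517 and for Snap91 of 0.0809, 0.243 and 0.125.

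The other roles had no call against EGFRvIII by limma. Median differences were 1.40 for the postsynaptic genes, 1.29 for interneuron and neuropeptide genes, 1.05 for the GABA genes, 0.78 for general neuron genes, 0.78 for receptors and channels, and 0.59 for the glutamate transporters. The nearest to a call was the synapsin Syn2 at 1.65 ± 0.59 with an adjusted p of 0.0705. Of the neuron genes outside the module, none of the 15 reference genes, 7 other GABAergic, 7 other glutamatergic or 5 striatal genes was called. Of 6 genes of immature neurons, Stmn1 at 0.57 and Tubb3 at 1.24, both microtubule genes that growing cells also use, were called higher.

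The neuron gene mean and the reference neuron mean correlated at 0.99 over the 45 arrays. Entering the latter as a covariate thus largely fixed in advance that the module's shift would go to about 0. That loss of the shift is not read as a result, and the covariate serves to compare single genes. The median difference of mutants from EGFRvIII became -0.05, with 15 genes above 0 and 20 below. Synpr stayed called at 1.34 ± 0.41 with an adjusted p of 0.032 by limma, as 1 of 35, against 9.54% of all genes in either direction and 5.02% higher. Snap91 was no longer called, at 0.58 ± 0.21 with an adjusted p of 0.0704, although it was called without EGFRvIII replicate 1, 2, 3, 7 or 8. All 5 general neuron genes were below 0, with a median of -0.48, among them Nefl at -0.97 ± 0.44 with an adjusted p of 0.156. Stmn2, which is itself 1 of the 15 reference genes, was lower in the mutants at -1.42 ± 0.38 with an adjusted p of 0.0146.

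This Synpr call also rested on few arrays. It was lost with the title range as a block, at 1.03 with an adjusted p of 0.193, and within titles 41 to 64, at 1.19 with an adjusted p of 0.205. It was lost too without EGFRvIII replicate 3, 4, 5 or 6 or E7 del replicate 3, with adjusted p-values of 0.057, 0.156, 0.0897, 0.0731 and 0.0576 by limma. In V544ins replicate 5, the array with the least neuron gene signal, Synpr still had 9.27, which was 3.0 above its line. In EGFRvIII replicate 4 it had 4.95, a residual of -3.52.

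**Figure D3:**
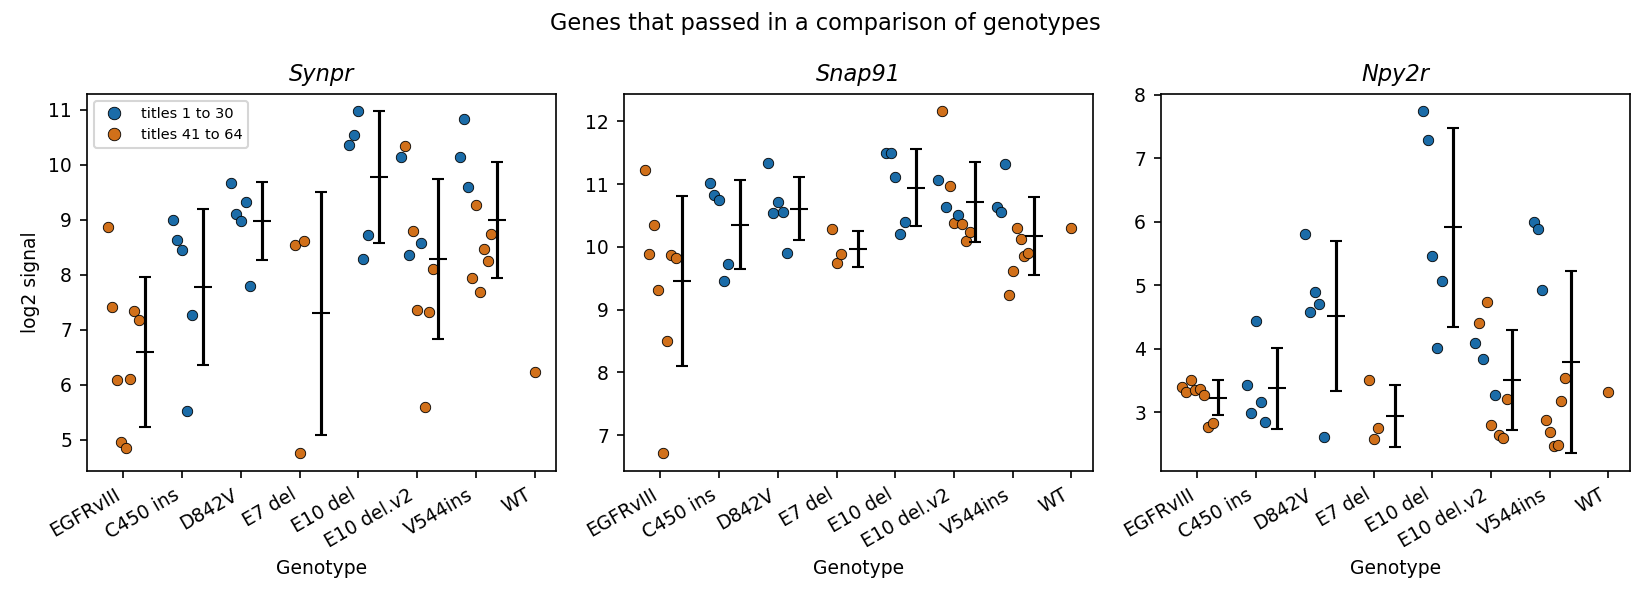
Log2 signal (y axis) of Synpr, Snap91 and Npy2r in each array by genotype (x axis), with group mean and SD. EGFRvIII lies low for Synpr, with a median of 6.64, its low Snap91 mean includes an array at 6.71, and Npy2r is highest in E10 del at 4.01 to 7.75.

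Of the 5 postsynaptic genes, Hpca, Ddn, Camk2a and Nrgn followed the trend more steeply than the median gene of the module, with slopes of 1.67, 1.61, 1.496 and 1.28, and Camk2b less so, at 0.80. Camk2a, the alpha subunit of the calcium and calmodulin dependent kinase, had r 0.95, Nrgn, the calmodulin binding protein neurogranin, 0.90, Hpca 0.88, Camk2b 0.87 and Ddn 0.87. In EGFRvIII replicate 4 the residuals were -3.76 for Hpca, -3.25 for Ddn and -2.64 for Nrgn, those of Camk2b and Camk2a were -0.97 and -0.21, and that of Slc17a6, the glutamate transporter of subcortical neurons, was 2.68. Hpca, Ddn and Nrgn thus departed from the other 2 postsynaptic genes, and they and Slc17a6 departed in opposite directions in that array, whose neuron gene mean was -0.28. Hpca and Ddn residuals correlated at 0.85 and those of Nrgn and Slc17a6 at -0.65.

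The level of the postsynaptic genes relative to general and vesicle genes correlated with 2 lists of region markers. It correlated at 0.61 with the mean of 7 other glutamatergic genes, which include the cortical factors Neurod6 and Tbr1, and at 0.59 with 5 striatal genes. Within titles the values were 0.61 and 0.51 for the first and 0.68 and 0.34 for the second, lower titles first. All are over the same 45 arrays and describe them only. The lists were not corrected for neuron content, which most of the postsynaptic genes followed more steeply than the median gene. The part of neuron content in these correlations was not tested.

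The 2 glutamate transporters behaved differently from each other. Slc17a7, the transporter of cortical and hippocampal neurons, was above 6 in EGFRvIII replicate 1 at 6.61, C450 ins replicate 1 at 8.18, E10 del replicates 1 and 2 at 7.51 and 7.23, E10 del.v2 replicates 1 and 2 at 6.20 and 8.50, and V544ins replicates 1 and 3 at 6.01 and 6.48. The other 37 arrays lay between 2.69 and 5.65. High Slc17a7 thus occurred in 1 or 2 arrays each of 5 genotypes and in every array of none. Other than V544ins replicate 1, these were also the arrays with high Neurod6 and Tbr1. The residuals of Slc17a7 varied with those of Vip, a peptide of cortical interneurons, at r 0.76. The arrays with Slc17a7 above 6 were also rich in neuron genes, with neuron gene means from 1.67 to 2.74. Slc17a7 had r 0.77 with the reference neuron mean. D842V replicate 1, E10 del replicate 3 and V544ins replicate 2 were similarly rich, at 2.19, 2.18 and 1.81, with Slc17a7 at 5.65, 2.86 and 2.95. The part of neuron content in high Slc17a7 was not tested.

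Slc17a6 had 11.15, 9.40, 10.14, 9.68 and 6.86 in the D842V arrays. C450 ins had 7.23, 11.30, 10.96, 5.25 and 7.30, E10 del had 8.64, 9.27, 6.92, 7.65 and 4.93, and E7 del had 5.82, 3.28 and 3.19. EGFRvIII ran from 4.0 over 6.60 to 10.18, E10 del.v2 from 4.77 over 7.78 to 9.69, V544ins from 3.27 over 5.01 to 9.71, and WT had 5.25. D842V lay highest and E7 del lowest by mean, at 9.45 ± 1.59 (n = 5) and 4.10 ± 1.49 (n = 3), and the 2 groups did not overlap.

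The difference of D842V from the other 5 mutants was 2.73 ± 1.02 for Slc17a6, with an adjusted p of 0.233, and that of E7 del was -3.68 ± 1.27 with an adjusted p of 0.154. Neither passed the test in limma. At equal reference neuron mean D842V was 2.30 ± 0.78 above the others with an adjusted p of 0.0862. Relative to the general and vesicle genes of the same array, Slc17a6 was at 1.74 ± 0.30 in D842V, from 1.34 to 2.08. D842V replicate 5, the array with little neuronal RNA, had 1.76. There Rbfox3, Nefh, Stx1a and Vamp1 lay below the table median, at 4.34, 4.05, 4.44 and 4.63, so that value depends on each gene's mean. The same measure was 1.30 ± 2.12 in C450 ins, 0.46 ± 1.69 in EGFRvIII, -0.28 ± 1.21 in E10 del.v2, -0.79 ± 1.89 in V544ins, -0.79 ± 1.17 in E10 del, -1.50 ± 0.23 in E7 del and -0.76 in WT. D842V and E7 del were narrow on this measure, and the other groups were wide. E7 del had only 3 arrays, and in its replicates 2 and 3 Slc17a6 was below the table median, at 3.28 and 3.19.

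Other region markers stood beside Slc17a6. Pmch, the melanin concentrating hormone precursor of the lateral hypothalamus, exceeded 8.5 in D842V replicates 1 to 4, at 10.57, 8.57, 10.44 and 9.73, in C450 ins replicate 3 at 11.16, in E10 del.v2 replicates 3 and 4 at 11.76 and 11.15, and in EGFRvIII replicate 3 at 8.78. Of 6 hypothalamic genes, Pmch alone was called for D842V, at 4.89 ± 1.10 above the other mutants with an adjusted p of 0.0255 by limma. The centred mean of these 6 genes was 2.64, 0.11, 2.66, 1.03 and -0.40 in D842V replicates 1 to 5. Of 7 choroid plexus genes, Ttr alone was called there. Ttr, a transport protein made by choroid plexus, was 4.69 ± 1.04 higher with an adjusted p of 0.0232 by limma. Slc17a6 relative to general and vesicle genes correlated at 0.51 with the mean of 6 hypothalamic genes over the 45 arrays, and at 0.52 and 0.42 within the lower and upper titles. The part of the sampled region in the Slc17a6 values was not tested.

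The GABA genes varied with neuron content. Gad1 had r 0.85, Gad2 0.83 and Slc32a1 0.88 with the reference neuron mean. Gad1 signals in EGFRvIII ran from 6.64 over 8.94 to 11.07 and in E10 del were 11.40, 11.39, 12.69, 11.07 and 9.24. Group means of Gad1 lay between 8.73 ± 3.16 (n = 9) in V544ins and 11.16 ± 1.24 (n = 5) in E10 del. Those of Gad2 lay between 4.84 ± 1.40 (n = 8) in EGFRvIII and 8.00 ± 1.77 (n = 5) in E10 del, and those of Slc32a1 between 3.70 ± 0.58 (n = 3) in E7 del and 7.45 ± 1.94 (n = 5) in E10 del. E10 del overlapped the lowest group for Gad1 and Gad2 but not for Slc32a1.

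GABA genes were set against glutamate genes within each array as the mean of the centred Gad1, Gad2 and Slc32a1 minus that of Slc17a7 and Slc17a6. The balance was highest in V544ins replicate 2 at 5.10 and E10 del replicate 3 at 4.70, followed by E10 del.v2 replicate 6 at 3.04, EGFRvIII replicate 2 at 2.36, V544ins replicate 1 at 2.04 and E10 del replicate 4 at 1.88. In V544ins replicate 2 and EGFRvIII replicate 2 both glutamate genes lay below the table median. Slc17a7 had 2.95 and 2.71 there, and Slc17a6 had 4.54 and 4.14. In C450 ins replicate 5 at -2.58 and D842V replicate 5 at -2.57, both poor in neuron genes, Gad2, Slc32a1 and Slc17a7 all lay below the table median, at 3.44, 3.31 and 2.92 and at 3.21, 3.37 and 2.98. With such dim signals the balance depends on each gene's mean and is not read as a level of GABA against glutamate genes. All 5 C450 ins and all 5 D842V arrays were below 0, the dim replicates 5 included. In C450 ins replicate 4, too, Gad2, Slc32a1 and Slc17a7 lay below the table median, at 3.52, 3.80 and 3.08. All 3 E7 del arrays were above 0, at 0.52, 0.65 and 1.20. In E7 del, too, Slc32a1 and Slc17a7 lay below the table median in every array, at 3.94, 4.13 and 3.05 and at 4.02, 2.78 and 2.84. Slc17a6 did so in E7 del replicates 2 and 3, at 3.28 and 3.19. The same limit thus holds for E7 del, and the group means include these dim arrays. Group means were -1.32 ± 1.05 (n = 5) in C450 ins, -1.08 ± 0.90 (n = 5) in D842V, -0.43 ± 1.36 (n = 8) in EGFRvIII, 0.22 ± 2.20 (n = 9) in V544ins, 0.43 ± 1.14 (n = 9) in E10 del.v2, 0.79 ± 0.36 (n = 3) in E7 del and 1.17 ± 2.20 (n = 5) in E10 del, with 1.44 in WT. No test was made of this score, since it is built from the chosen genes.

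The arrays with a high balance were those with striatal transcripts. The mean of the centred Drd1, Drd2, Ppp1r1b, Rgs9 and Pde10a, genes of striatal projection neurons, was highest in V544ins replicate 2 at 4.79, E10 del replicate 3 at 4.77, V544ins replicate 1 at 3.66, E10 del.v2 replicate 6 at 2.70 and E10 del replicate 4 at 2.09. All 5 are among the 6 arrays with the highest balance. Other than in V544ins replicate 1, Slc17a7 lay below the table median in these arrays, so their balance depends in part on that gene's mean. Over 45 arrays the correlation was 0.74 with a Spearman's rho of 0.36, and 0.54 without the 2 farthest arrays, so the relation rested largely on these few arrays. It was 0.89 within the lower titles and 0.46 within the upper. The 3 GABA genes and the 2 glutamate transporters themselves correlated at 0.60, at 0.27 within the lower titles and 0.73 within the upper.

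**Figure D4:**
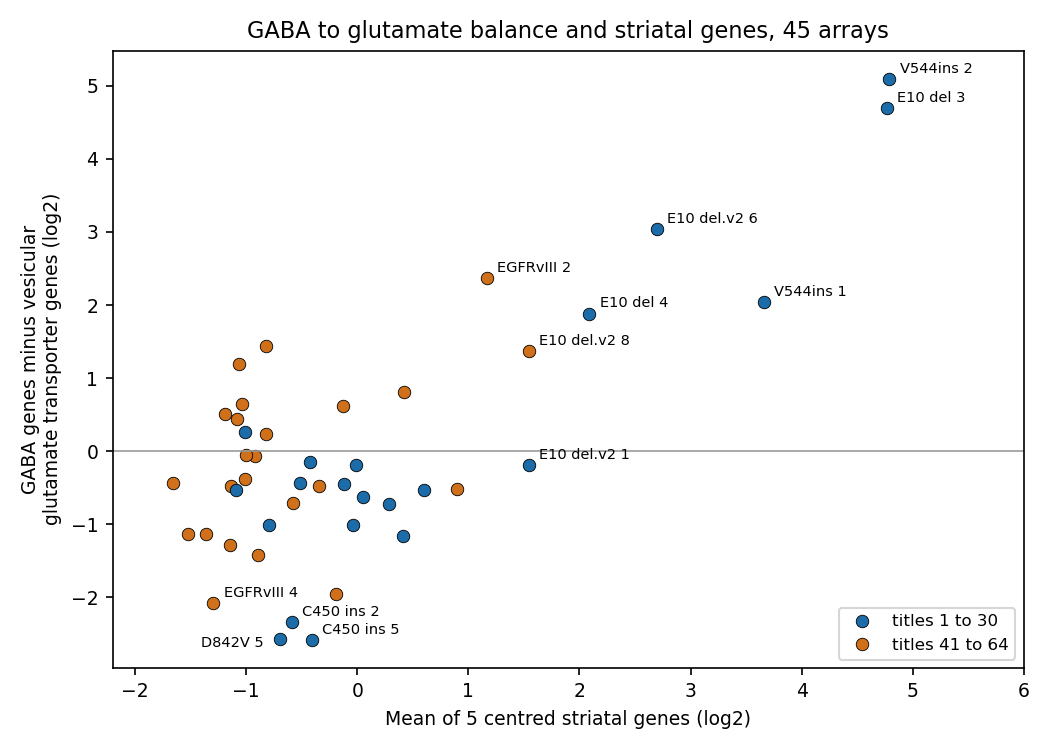
Mean of centred GABA genes minus mean of centred glutamate transporter genes (y axis, log2) against the mean of 5 centred striatal genes (x axis, log2), 1 point an array, coloured by title range. V544ins replicate 2 at 5.10 and E10 del replicate 3 at 4.70 lie at the upper right, and most arrays form a cloud with no clear order.

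Of the peptide genes, Penk and Tac1 followed the trend loosely. Penk had the lowest r of all 35 genes, 0.60, and 0.59 and 0.44 within the lower and upper titles, and Tac1, the substance P precursor, had 0.67. Both are made by striatal projection neurons among others. Penk lay 3.39 above its line in E10 del.v2 replicate 6 and Tac1 3.20, in an array with a striatal mean of 2.70. Penk was also high in EGFRvIII replicate 2, at a signal of 10.03 with a residual of 2.96, and in the WT array, at 10.17 with a residual of 3.13, though the striatal mean there was -0.83. It was low in C450 ins replicate 2 at 5.57, a residual of -3.06.

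The group means of Penk ran from 6.27 ± 0.92 (n = 5) in C450 ins to 9.84 ± 2.29 (n = 5) in E10 del, and EGFRvIII had 6.61 ± 1.91 (n = 8). Tac1 ran from 6.17 ± 1.71 (n = 8) in EGFRvIII to 9.35 ± 2.32 (n = 5) in E10 del. Sst, the somatostatin precursor of a class of interneurons, kept to the trend with r 0.94, Pvalb, a calcium buffer of fast interneurons, had 0.86 and Vip 0.73. Vip had a residual of 3.15 in EGFRvIII replicate 5 and of -3.69 in V544ins replicate 2. The 5 genes thus ranged from close followers to the loosest of the module.

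Receptors and channels were also mixed. Kcna1, a voltage gated potassium channel, had r 0.66, but 0.87 within the lower titles against 0.55 within the upper. Its signal was 11.24 in EGFRvIII replicate 7, where the neuron gene mean was -1.56, a residual of 2.88, and 5.85 in EGFRvIII replicate 5, a residual of -2.08. The sodium channels Scn1a and Scn8a, subunits that carry the action potential, followed the trend at 0.86 and 0.92. Htr2c, a serotonin receptor that choroid plexus also makes, had r 0.84. It stood at 6.91 in D842V replicate 5, 3.54 above its line, where the mean of 7 choroid plexus genes was 2.61 and Ttr had 13.01, and the part of choroid plexus in that value was not tested.

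Npy2r, a receptor of neuropeptide Y, was the neuron gene called for E10 del. The 5 E10 del arrays had 7.75, 7.29, 5.46, 4.01 and 5.06. D842V had 5.81, 4.57, 4.89, 4.70 and 2.60, C450 ins had 3.43, 2.99, 4.44, 3.16 and 2.84, and E7 del had 3.50, 2.57 and 2.75. EGFRvIII ran from 2.76 over 3.33 to 3.51, E10 del.v2 from 2.59 over 3.27 to 4.73, V544ins from 2.47 over 3.18 to 5.99, and WT had 3.32. E10 del lay wholly above EGFRvIII and E7 del and overlapped the other mutants, and most arrays outside it lay below the table median of 4.79.

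E10 del exceeded the other 5 mutants by 2.29 ± 0.49 for Npy2r on the log2 scale, with an adjusted p of 0.0286 by limma. It was the 1 neuron gene of 35 called for E10 del, against 0.796% of all genes in either direction and 0.195% higher. All 35 differences were positive with a median of 1.51, against -0.07 over all genes, and 12 reached an unadjusted p under 0.05, against 27.7% of all genes. Medians were 2.19 for the postsynaptic genes, 2.02 for the GABA genes, 1.98 for the peptide genes, 1.59 for the general neuron genes and 0.91 for the vesicle genes. Ddn was 3.32 ± 1.15 higher with an adjusted p of 0.0869. None of the 9 cell cycle genes was called, and their median difference was -1.49.

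The Npy2r call did not hold within titles 1 to 30, where the difference was 1.61 ± 0.52 with an adjusted p of 0.262, or with the range as a block, at 1.58 ± 0.48 with an adjusted p of 0.541, by limma. Without E10 del.v2 replicate 2 and E10 del replicates 1 to 3 it was 0.93 ± 0.67 with an adjusted p of 1.0. Without E10 del replicate 1, 2 or 3 alone the adjusted p was 0.321, 0.245 and 0.125. At equal reference neuron mean the difference was 1.58 ± 0.36 with an adjusted p of 0.13, and none of the 35 genes was called, as was 0% of all genes, while 3 reached an unadjusted p under 0.05, against 11.5% of all genes.

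The other mutants had no called neuron gene by limma. E7 del had 0 of 35 against 0.356% of all genes, although all 35 differences were negative with a median of -1.80 and 15 reached an unadjusted p under 0.05, against 17% of all genes. Its general neuron genes had a median of -2.94 and its vesicle genes -1.31. Of 11 genes of myelinating oligodendrocytes, Aspa, Mal, Mog and Mbp were called lower in E7 del, by -3.16, -2.91, -2.69 and -2.41. The centred mean of the 11 genes was -0.42, -3.14 and -1.22 in E7 del replicates 1 to 3. Each of the called genes had its lowest signal of the 45 arrays in replicate 2. D842V had 0 of 35 against 0.584% of all genes, with 30 differences above 0, against 48% of all genes, and 2 at an unadjusted p under 0.05, against 11.7%. C450 ins, V544ins and E10 del.v2 had 0 of 35 against 0% of all genes each, with 26 and 33 differences below 0 in the first 2 and 33 above 0 in the last. In these 3, 0, 0 and 1 of the 35 reached an unadjusted p under 0.05, against 3.66%, 4.44% and 6.01% of all genes.

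With the covariate, again none of the 35 was called for E7 del, against 1.46% of all genes, for D842V against 4.05%, for E10 del.v2 against 0.0254%, or for C450 ins and V544ins against 0% each. Unadjusted p-values under 0.05 numbered 1, 3, 3, 5 and 0 in that order, against 15.1%, 19.6%, 11.5%, 6.47% and 6.55% of all genes. In C450 ins Ddn was at -1.89 ± 0.60 with an adjusted p of 0.626 and Slc17a6 at 1.64 ± 0.78 with an adjusted p of 0.764. The E7 del differences were then spread about 0, 19 above and 16 below with a median of 0.22. This too was largely fixed by the covariate, which correlated at 0.99 with the neuron gene mean.

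Over the 6 mutants at once, limma's F test called 0 of the 35 genes, against 0.576% of all genes, with 4 at an unadjusted p under 0.05, against 18.2%. With the covariate it called 1, Npy2r, against 2.5% of all genes, with 2.07 between the highest and the lowest mutant mean and an adjusted p of 0.0203, where it had been 2.97 with an adjusted p of 0.0686 without the covariate. The call was lost with the title range as a block, at an adjusted p of 0.0563, within titles 1 to 30 at 0.0822, within titles 41 to 64 at 1.0, and without E10 del replicate 1 or 2 at 0.0691 and 0.0626.

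The title ranges were compared within V544ins and E10 del.v2, which span both. By limma none of the 35 genes was called, against 0% of all genes, but all 35 differences favoured the lower titles with a median of 1.73, against -0.05 over all genes, and 24 reached an unadjusted p under 0.05, against 23.2% of all genes. Sst was the nearest at 3.30 ± 0.74 with an adjusted p of 0.0838. Its V544ins signals were 10.54, 10.25 and 9.61 in the lower titles and 3.30 to 5.34 in the upper. This comparison hung on 1 array: without E10 del.v2 replicate 2, the upper array richest in neuron genes, 28 of the 35 were called, against 24.8% of all genes. With the covariate 0 were called, against 0.00847% of all genes, 7 had an unadjusted p under 0.05, against 12.9%, and 20 of the 35 lay above 0.

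A test of whether the range difference itself differed between the 2 genotypes, chosen after the data were seen, called 0 of the 35 genes against 0.0339% of all genes, with 25 at an unadjusted p under 0.05, against 29.1%. The median of V544ins minus E10 del.v2 was 2.88, against -0.11 over all genes. For Sst the range difference was 5.63 in V544ins and 0.98 in E10 del.v2, which differed by 4.65 ± 0.98 with an adjusted p of 0.0744 by limma. No gene of the module passed the adjusted threshold for this contrast.

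**Figure D5:**
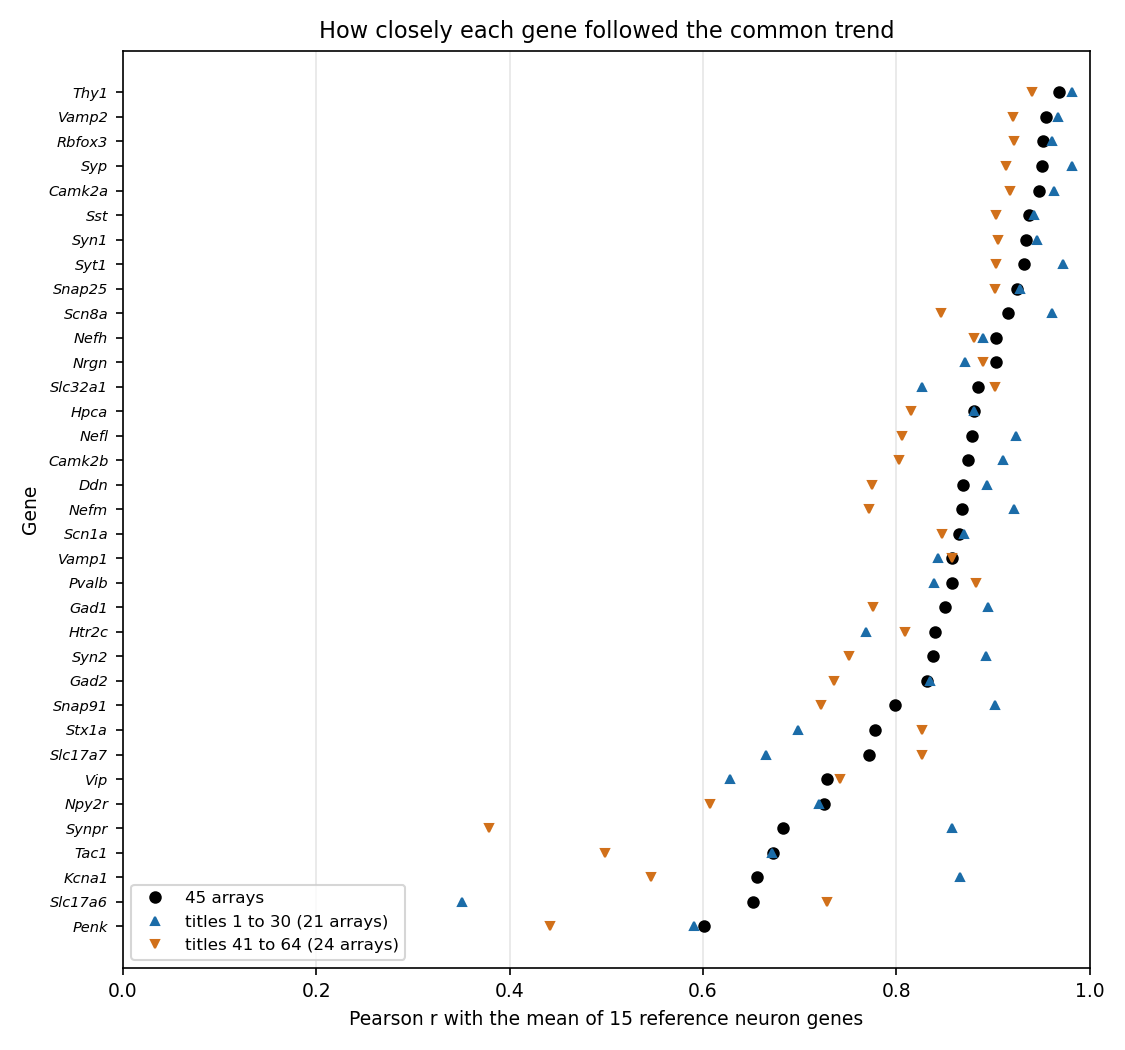
Pearson's r of each of 35 neuron genes with the reference neuron mean (x axis), over 45 arrays, over the 21 arrays of titles 1 to 30 and over the 24 arrays of titles 41 to 64, genes ordered by r (y axis). Penk, Slc17a6, Kcna1, Tac1, Synpr and Npy2r have the lowest r over all arrays, 0.60 to 0.73, and Synpr falls from 0.86 to 0.38 between the ranges.

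The 6 loosest genes were Penk at 0.60, Slc17a6 at 0.65, Kcna1 at 0.66, Tac1 at 0.67, Synpr at 0.68 and Npy2r at 0.73. Their r differed between title ranges in both directions. Synpr had 0.86 in the lower titles and 0.38 in the upper, and Slc17a6 0.35 in the lower and 0.73 in the upper. A principal component analysis of the 35 genes put 74.4% of the variance on the first component, the common trend, and 7.2% on the second. The second set Penk, Tac1, Hpca, Ddn and Gad2, with loadings of 0.390, 0.342, 0.225, 0.207 and 0.202, against Slc17a6, Nefh, Pvalb and Vip, with -0.479, -0.244, -0.204 and -0.199.

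Residuals showed which genes still varied together after the trend was taken out, over the same 45 arrays. Snap25 and Syt1 had r 0.83 and Nefh and Slc17a6 the same. Slc17a6 thus went with the heavy neurofilament gene, while Penk and Tac1 lay at the opposite end of the second component.

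Genes outside the module with the most similar pattern were found by their r with the neuron gene mean over 45 arrays. They were Atp6v1g2, a subunit of the vesicular proton pump, Eno2, which is 1 of the reference genes, Dmtn, Slc12a5, the chloride transporter of mature neurons, and Map4, each at 0.98, and Kifc2, Gng13 and Ckmt1, each at 0.97. The most opposite were Cyp4f16, Ccdc163 and Cep152 at -0.89, Ercc6l2 at -0.88, Cmtm3 and Kctd10 at -0.87, and Gpn2 and Col5a3 at -0.86.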

How the data were processed

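RNA of 45 mouse tumour samples, 100 ng each of Trizol extract per the labels' protocols, was measured on Affymetrix 3' IVT arrays. The authors deposited log2 signals for 45141 probe sets, processed by RMA per the submitters' processing notes, version and settings not given in the sources used here. RMA gives arrays a common distribution, so values are relative within an array, and the number of arrays limits precision. Array medians were 4.66 to 4.85, and no pair of arrays correlated above 0.9935.

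The 28898 probe sets with 1 symbol (551 had several, 15692 none) gave 17097 genes. The low signal filter asked for more than the table median in at least 3 arrays. Contrasts of the 8 genotype means came from lmFit and eBayes of limma 3.58.1 (R 4.3.3), adjusted by Benjamini-Hochberg over 11809 genes and called under 0.05, with and without the reference neuron mean as covariate. Errors of differences are its standard errors, and errors of levels are SD. Descriptions used Python 3.11.15, numpy 2.4.6, pandas 2.3.3 and scipy 1.17.1. The fit was tested on simulated data for the contrast of mutants with EGFRvIII. Without the covariate it recovered 40.3%, 77.6% and 95.5% of genes changed by 0.5, 1 and 2 on the log2 scale. False calls were 7.79% without the covariate and 5.13% with it.

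The genes, lists, settings and named-gene rule were chosen with earlier results of these data known. The rule gives values by group for Snap25, the GABA and glutamate transmitter genes, every gene called and the 6 genes of lowest r with the reference neuron mean, and names the 8 genes most and least like the neuron gene mean and up to 4 genes of a list. Others, such as Nefl, Hpca, Ddn, Htr2c, Vip and Sst, were named after their values were seen. Trp53 was not analysed here.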

Additional observations from a re-analysis of the deposited data

Results flagged for a closer look

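In groups of 4 to 10 arrays, 84 in all over 14 measures, the highest or lowest array was compared with its fellows by Dixon's ratio, and 8 groups held an array far from the rest. Chance marks about 1 in 20 groups. D842V replicate 5 was far below the other 4 D842V arrays for Snap25, at 7.62 against 11.87 to 12.77, for Gad1, at 4.80 against 10.12 to 11.66, and for the mean of the centred neuron genes, at -2.21 against 0.99 to 2.19. EGFRvIII replicate 1 was far above its fellows for Slc32a1, at 7.44 against 3.53 to 5.08, and for Slc17a7, at 6.61 against 2.71 to 3.55. C450 ins replicate 1 was far above for Slc17a7, at 8.18 against 2.92 to 4.20. E10 del.v2 replicate 2 was far above for Snap91, at 12.17 against 10.10 to 11.06, and for Kcna1, at 11.99 against 8.65 to 10.09.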

How the results depend on the processing

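The differences of Synpr, Snap91 and Npy2r in the comparisons that called them kept their direction under every setting run, but the neuron gene mean of C450 ins and V544ins and the balance of V544ins changed sign, the last to -0.67 within titles 41 to 64. The sign of most differences from EGFRvIII also turned under the title range block, from 35 of 35 positive to 11. No paired analysis was possible because the labels carry no replicate numbers. With quantile normalisation, centred arrays, no filter, a filter of 9 arrays, a robust trended prior or another neuron covariate, every count of called neuron genes stayed within 1.5 times of that reported, and Synpr, Snap91 and Npy2r were called in the same comparisons.

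With the title range as a block, and within titles 41 to 64 alone, 0 neuron genes were called for mutants against EGFRvIII, for each mutant against the others, for mutants against EGFRvIII with the covariate and in the F test with the covariate. Within titles 1 to 30 alone, 0 were called for each mutant against the others, and the mean of the centred genes in V544ins was 1.99. With the mean of all probe sets, and with only the arrays compared, 1 gene, Slc17a6, was called for D842V with the covariate. Without the 4 arrays lowest on the first component of all genes (E10 del.v2 replicate 2 and E10 del replicates 1 to 3), 1 was called against EGFRvIII (Synpr), 0 for each mutant, 28 between title ranges and 0 in the F test with the covariate. Shares of all genes are not given for these counts, and nothing is read from them.

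Array weights ran from 0.175 for E10 del.v2 replicate 2 to 9.94. With them 4 genes were called against EGFRvIII (Sst, Syn2, Synpr and Syp), against 7.92% of all genes. In at least 1 contrast of a mutant with the others 35 were called, in the F test 34 (91.9% of all genes) and between title ranges 29 (30.3%). With the covariate the weights gave 0 against EGFRvIII, 22 in at least 1 contrast of a mutant and 23 in the F test (71.2% of all genes). Nothing is read from those counts that have no share of all genes beside them. The cause of the high counts under array weights was not tested.

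Leaving out 1 array gave 0 to 6 genes against EGFRvIII. It gave 6 without EGFRvIII replicate 1, against 19% of all genes, and 0 without replicate 4, 5 or 6. In at least 1 contrast of a mutant with the others 0 to 5 genes were called. These were 5 without E10 del replicate 5 and 0 without E10 del replicate 1, 2 or 3. The F test called 0 to 1. Between title ranges 0 to 28 were called. These were 28 without E10 del.v2 replicate 2, against 24.8% of all genes, 3 without replicate 3 and 1 without replicate 4. With the covariate, leaving out 1 array gave 0 to 4 against EGFRvIII (4 without EGFRvIII replicate 8). It gave 0 to 1 in at least 1 contrast of a mutant, 0 to 1 in the F test and 0 to 0 between title ranges. Nothing is read from counts given here without a share of all genes. The neuron gene mean then ran from -0.76 to 0.23 in C450 ins, 0.21 to 1.31 in D842V, 1.21 to 1.80 in E10 del, 0.43 to 0.84 in E10 del.v2, -2.27 to -1.04 in E7 del, -1.26 to -0.65 in EGFRvIII and -0.58 to 0.07 in V544ins. The GABA minus glutamate balance ran from -1.55 to -1.01 in C450 ins, -1.30 to -0.71 in D842V, 0.29 to 1.60 in E10 del, 0.11 to 0.55 in E10 del.v2, 0.58 to 0.92 in E7 del, -0.83 to -0.20 in EGFRvIII and -0.39 to 0.49 in V544ins.

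Some probe sets limit what is measured. Npy2r and Slc17a7 were near the dim end in most arrays, and dimmer other probe sets of Scn8a, Camk2a and Tac1 correlated at -0.41, -0.34 and -0.03 with the ones used. Dim other probe sets of Slc32a1, Kcna1 and Syp correlated at 0.16, 0.20 and 0.22. Slc32a1, Syp and Tac1 had no further probe set, whereas further ones of Kcna1 correlated at 0.98.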

Other observations

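The arrays also held transcripts of tissue beside the brain parenchyma. The mean of 4 centred pituitary genes was 8.03 in C450 ins replicate 5, 7.87 in V544ins replicate 4 and 4.92 in E10 del replicate 3. Prl, the prolactin gene, had a log2 signal of 13.54 in C450 ins replicate 5, and Gh, the growth hormone gene, had 13.03 there. The first 2 of these arrays were poor in neuron genes, with neuron gene means of -2.22 and -2.58, and the third was rich, with 2.18. Their GABA minus glutamate balances were -2.58, -1.96 and 4.70, the first 2 from mostly dim signals. V544ins replicate 4 also had the lowest residual of Gad1, -3.91.

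Choroid plexus genes, 7 in the list, had their highest centred means in E10 del replicate 2 at 3.78, C450 ins replicate 3 at 3.14, E10 del.v2 replicate 4 at 2.95 and D842V replicates 5, 1, 2 and 4 at 2.61, 2.55, 2.02 and 1.19. Of these arrays C450 ins replicate 3, E10 del.v2 replicate 4 and D842V replicates 1, 2 and 4 also had Pmch above 8.5, and E10 del replicate 2 and D842V replicate 5 did not. The list of cerebellar genes had 4 of 5 genes on the array, of which 1, Car8, passed the filter. Car8 was not called in any comparison without the covariate, and with it was 2.01 ± 0.49 higher in the mutants than in EGFRvIII with an adjusted p of 0.00795 by limma.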
